A study of Mus musculus with 16 samples.

Results

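The neuronal pentraxins are a small family of synaptic proteins, described here from the RNA and chromatin of nuclei of the mouse dentate gyrus (DG). The family has 3 members, *Nptx1* (ENSMUSG00000025582), *Nptx2* (ENSMUSG00000059991) and *Nptxr* (ENSMUSG00000022421), among the 32285 genes counted, and all 3 were found by symbol in every library. The family was chosen by *Nptx2*: the share of granule cells (GCs) with *Nptx2* RNA, in WT and mutant nuclei and in *Penk*+ against *Penk*- nuclei of these same libraries, had already picked it as a gene of interest. Its values in those contrasts are therefore given as a description with no test, and *Nptx1* and *Nptxr* were added as the other members of the family.

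Neuronal pentraxins 1 and 2 are secreted proteins that assemble into multimers, and the neuronal pentraxin receptor *Nptxr* is the membrane-anchored member with which they assemble. At excitatory synapses the complexes bind and cluster AMPA-type glutamate receptors. *Nptx2*, also known as Narp, is an activity-regulated gene, and the metalloprotease Adam17 can cut the receptor from the membrane. In the annotation RefSeq gives for GRCm38.p6, *Nptx1* lies on chromosome 11 from 119538719 to 119547820, *Nptx2* on chromosome 5 from 144545887 to 144557478, and *Nptxr* on chromosome 15 from 79786351 to 79804709. The whole span of *Nptxr* lies inside the read-through gene *Npcd*, on chromosome 15 from 79786351 to 79834333. *Npcd* was not among the genes counted, so reads given to *Nptxr* may include reads of that transcript, and the *Nptxr* values are uncertain to that extent.

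The DG was microdissected and frozen from 4 WT mice (genotype VV) and 4 mice with the V321L allele of *Nrg1* on both copies (genotype LL), with 2 females (F1, F2) and 2 males (M1, M2) in each genotype and 1 Multiome library of RNA and accessible chromatin per mouse. *Nrg1* encodes neuregulin 1, and V321L is a missense change in its transmembrane domain. The labels name no treatment and no age for these mice. Values for single mice are given in the order F1, F2, M1 and M2.

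Of 16444 nuclei, 8472 were gated as GCs (4458 WT, 4014 V321L), and all 12 GC markers were detected in them. WT libraries held 4326426 to 14624265 UMIs (unique molecular identifiers, 1 per captured RNA molecule) and V321L libraries 15505354 to 23582057. The median GC held 1360.5 to 2395 UMIs in the WT mice and 3291 to 4608.5 in the V321L mice, so depth did not overlap between the genotypes and the effect of depth on a raw share cannot be told apart from that of genotype. The mitochondrial share of UMIs in GCs was likewise 0.0668% to 0.142% in WT and 0.303% to 1.08% in V321L mice, and all 82 ribosomal protein genes tested were higher in V321L GCs, with a median log2 fold change of 3.96. Among the 16444 nuclei, 162 barcodes were found in more than 1 library. A nucleus in no class was more frequent in WT (30.9% to 56.3%) than in V321L libraries (9.88% to 16.7%). *Nrg1* RNA in GCs was 722 to 960.0 CPM (counts per 1000000 UMIs of the class) in WT and 404 to 598 CPM in V321L mice, which does not check the label, because a missense change leaves the transcript to be counted. The parts of these differences in the results that follow were not tested, beyond the values given for equal depth.

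All 3 neuronal pentraxins were higher in GCs of every V321L mouse than in GCs of any WT mouse. *Nptx1* stood at 75.7, 41.3, 81.1 and 43.1 CPM in the 4 WT mice and at 129.6, 109.6, 146 and 149 CPM in the 4 V321L mice. *Nptxr* stood at 34.7, 20.03, 60.1 and 27.5 CPM in WT and at 119, 87.1, 99.5 and 109 CPM in V321L mice. The highest WT mouse was M1 for both genes, and it stayed below the lowest V321L mouse, F2, each time. *Nptx2*, the scarcest of the family in counts, stood at 1.39, 3.08, 3.64 and 1.25 CPM in WT (4, 12, 4 and 4 UMIs) and at 11.3, 8.22, 9.50 and 9.29 CPM in V321L mice (43, 46, 36 and 29 UMIs). A gap of this kind was common in these libraries, since 47.5% of the 12325 genes tested were higher in every V321L mouse than in any WT mouse.

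**Figure D1:**
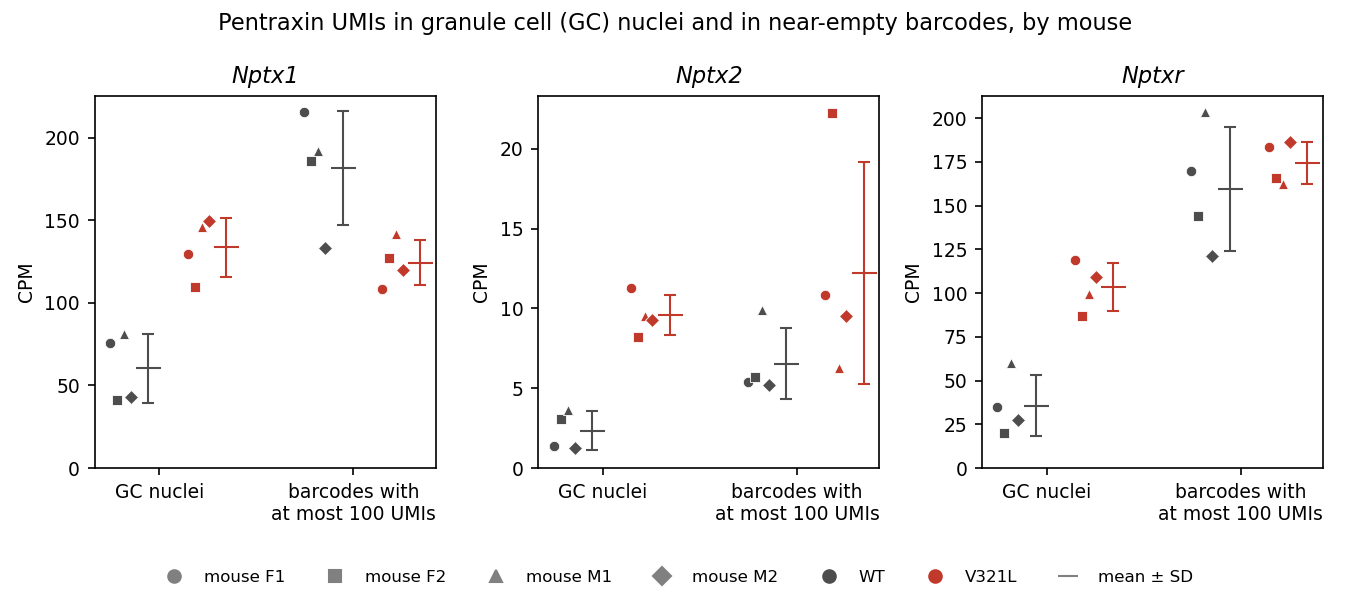
Level of *Nptx1*, *Nptx2* and *Nptxr* in GCs, and in barcodes with at most 100 UMIs (mostly free RNA), in CPM, with 1 point per mouse and the mean and SD of 4 mice beside them. In GCs the 4 V321L mice lie above the 4 WT mice for each gene, with means of 134 against 60.3, 9.57 against 2.34 and 104 against 35.6 CPM, whereas in the free RNA the *Nptx1* means run the other way.

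The mean of *Nptx1* was 60.3 ± 21.0 CPM in WT and 134 ± 18.1 CPM in V321L GCs (SD, n = 4 mice each), from 606 and 2126 UMIs. In edgeR's quasi-likelihood test of sums per mouse its log2 fold change was 0.76 (SE 0.18, Benjamini-Hochberg adjusted p = 0.00199). *Nptxr* rose from 35.6 ± 17.4 to 104 ± 13.6 CPM (SD, n = 4 each; 332 and 1659 UMIs), with a log2 fold change of 1.23 (SE 0.21, adjusted p = 0.000125 by the same edgeR test). Both secreted and membrane-anchored members thus passed the test, in a comparison in which 69.98% of all genes tested passed it and 38.6% passed it in the higher direction. *Nptx2* was at 2.34 ± 1.20 CPM in WT and 9.57 ± 1.26 CPM in V321L mice (SD, n = 4 each), a fitted log2 difference of 1.65 (SE 0.33), given without a test.

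Set against the other genes, the family stood on the higher side of a broad shift without lying at its extreme. The share of genes with a lower fold change was 68.3% for *Nptx1*, 78.3% for *Nptxr* and 85.1% for *Nptx2*. The median of all genes depended on the scaling, at 0.12 on the log2 scale under TMM (the trimmed mean scaling of edgeR), 0.57 under plain library sizes and 0.03 under DESeq2's size factors. Relative to that median the log2 difference of *Nptx1* was 0.64, 0.62 and 0.64, that of *Nptx2* 1.53, 1.54 and 1.54, and that of *Nptxr* 1.10, 1.08 and 1.09 under the 3 scalings in the same order. All 3 members kept the higher direction under each of them, while the share of called genes that were higher in V321L GCs moved from 55.2% under TMM to 75.4% under library sizes.

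The share of GCs with at least 1 UMI of a member gave the same order of the genotypes at full depth. *Nptx1* was detected in 18.0%, 9.41%, 11.4% and 11.0% of WT GCs and in 34.4%, 39.8%, 45.9% and 39.4% of V321L GCs. *Nptxr* was detected in 8.24%, 4.58%, 9.09% and 6.94% of WT and in 31.0%, 31.4%, 34.1% and 28.5% of V321L GCs. *Nptx2* was found in far fewer nuclei, 0.397%, 0.681%, 0.587% and 0.347% in WT and 3.04%, 3.21%, 3.39% and 2.93% in V321L mice. The genotypes did not overlap for any member, but neither did they for 74.1% of all genes tested, which had a higher share in every V321L mouse.

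With every nucleus thinned at random to 1000 UMIs, which left 3882 WT and 3977 V321L GCs, the shares shrank and the genotypes still did not overlap. *Nptx1* was then detected in 3.63% to 7.74% of WT and 9.59% to 14.6% of V321L GCs, with means of 5.40% ± 1.88 and 12.4% ± 2.09 (SD, n = 4 each). *Nptxr* was detected in 2.00% to 6.19% of WT and 8.66% to 11.6% of V321L GCs, with means of 3.60% ± 1.81 and 10.2% ± 1.35 (SD, n = 4 each). *Nptx2* was at 0.159% ± 0.0408 and 1.13% ± 0.495 (SD, n = 4 each), which rests on 6 WT and 44 V321L nuclei. Compared between genotypes with a two-sided exact permutation test over mice (written exact p), *Nptx1* and *Nptxr* gave p = 0.0286 at full and at equal depth, the smallest p that 4 mice against 4 can give, and the background of genes without overlap in this direction at equal depth was 39.97%.

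**Figure D2:**
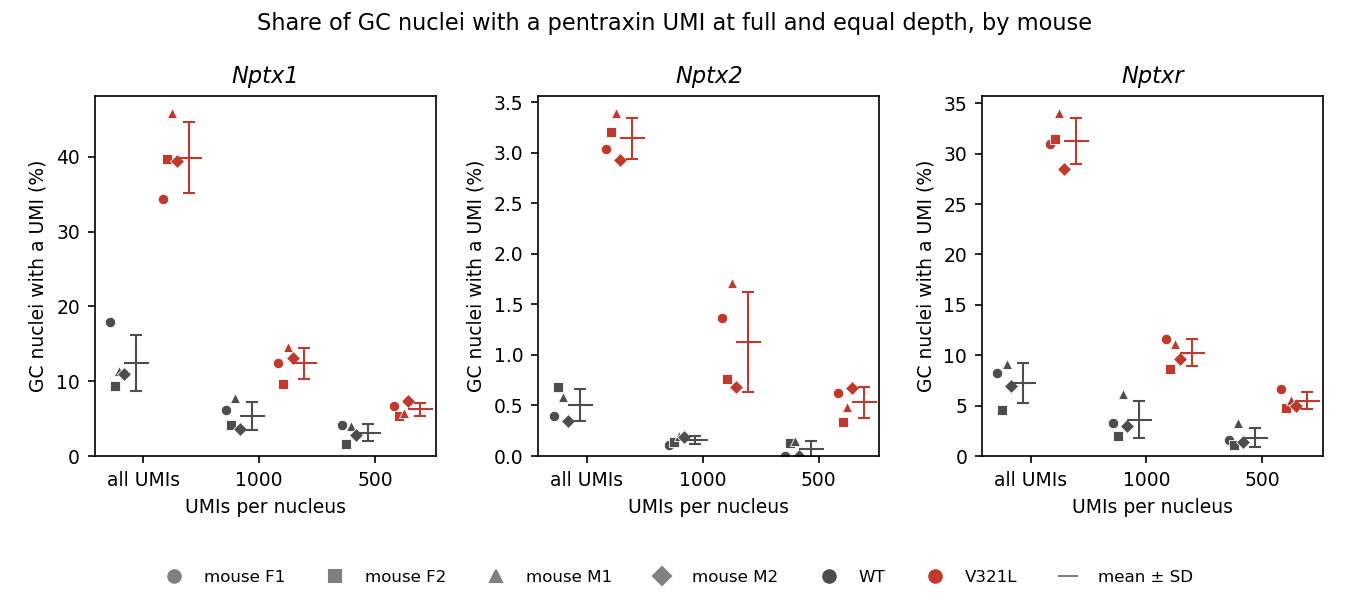
Share of GC nuclei with at least 1 UMI of each member, at full depth and with every nucleus thinned to 1000 or 500 UMIs, with 1 point per mouse and the mean and SD of 4 mice. Thinning lowers the V321L means from 39.9% to 12.4% for *Nptx1*, from 3.14% to 1.13% for *Nptx2* and from 31.2% to 10.2% for *Nptxr* at 1000 UMIs, and the genotypes do not overlap at that depth.

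Free RNA in the droplets adds UMIs to every class, so the shares in GCs are set beside those in classes that should hold little of a member. At 1000 UMIs *Nptx1* was detected in 192 of 3882 WT GCs, or 4.95% (exact 95% binomial interval 4.29% to 5.68%, counting error only), and in 4 of 62 WT oligodendrocytes, or 6.45% (1.79% to 15.7%). No *Nptx1* UMI was seen in 155 WT GABAergic neurons, which allows a share of up to 1.94%, and 1.72% of WT astrocytes (0.209% to 6.09%) had one. The *Nptx1* share of WT GCs was thus above that of GABAergic neurons and not above that of oligodendrocytes, and the part of free RNA in it was not tested. In V321L mice 12.2% of GCs (11.2% to 13.2%) and 1.63% of oligodendrocytes (0.447% to 4.13%) had an *Nptx1* UMI. *Nptxr* was in 3.12% of WT GCs (2.59% to 3.71%), not above the 3.45% of WT astrocytes (0.947% to 8.59%), and in 10.2% of V321L GCs (9.26% to 11.2%) against 2.81% of V321L astrocytes (1.41% to 4.98%). Without thinning, the median oligodendrocyte held 906 to 1178 UMIs in WT and 890.0 to 1249 in V321L mice, and the shares of *Nptx1* there were 5.93% and 1.81%. The median astrocyte held 837 to 958 and 1232 to 1889 UMIs, and the unthinned shares of *Nptxr* there were 2.77% and 3.59%.

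Barcodes with at most 100 UMIs, which hold mostly free RNA, gave a level of the free RNA itself. *Nptx1* was at 216, 186, 192 and 133 CPM in the free RNA of WT and at 109, 127, 141 and 119.9 CPM in that of V321L libraries. *Nptxr* was at 160.0 ± 35.4 CPM in WT and 174 ± 12.2 CPM in V321L free RNA, and *Nptx2* at 6.54 ± 2.24 and 12.2 ± 6.95 CPM (SD, n = 4 each). The means of *Nptx1* ran opposite to those in GCs, with 182 ± 34.8 CPM in WT and 124 ± 13.7 CPM in V321L free RNA (SD, n = 4 each). By these means each member was lower in GCs than in the free RNA of WT libraries, and in V321L libraries *Nptx2* and *Nptxr* were also lower in GCs, whereas *Nptx1* was at 134 CPM in GCs.

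CA3 pyramidal neurons, a neighbouring excitatory class that comes along in the dissection, showed the same direction for *Nptx1* and *Nptxr*. *Nptx1* stood at 45.3, 34.1, 50.1 and 46.4 CPM in WT and at 108, 92.6, 96.2 and 185 CPM in V321L mice. *Nptxr* stood at 45.3, 45.5, 40.0 and 19.3 CPM in WT and at 122, 167, 192 and 254 CPM in V321L mice. The genotypes did not overlap for either gene, although the V321L mice held 44, 11, 9 and 43 nuclei of the class. How many of all genes did not overlap in CA3 neurons was not counted at any depth, so the gap cannot be read as particular to these genes. In GCs 47.5% of the genes tested were higher in CPM in every V321L mouse than in any WT mouse. The log2 fold change was 1.57 for *Nptx1* (SE 0.31, adjusted p = 0.000332 by edgeR) and 2.22 for *Nptxr* (SE 0.33, adjusted p = 1.02e-05 by edgeR), where 40.03% of the 3687 genes tested passed and 21.7% passed in the higher direction. At 1000 UMIs per nucleus the share of CA3 nuclei with *Nptxr* was 2.35% in WT and 17.5% in V321L mice (exact p = 0.0286, n = 4 each), whereas that with *Nptx1* was 5.21% and 7.11% and overlapped (exact p = 0.514). At 500 UMIs the *Nptxr* shares of 1.68% and 6.21% overlapped as well (exact p = 0.200, n = 4 each). *Nptx2* gave 5 UMIs in WT and 2 in V321L CA3 nuclei and was below the filter on low counts.

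In CA1 pyramidal neurons the *Nptx1* levels of the genotypes overlapped. The WT mice stood at 26.3, 44.6, 28.5 and 30.2 CPM and the V321L mice at 32.5, 19.9, 22.5 and 60.7 CPM (two-sided exact p = 0.914, n = 4 each). At 1000 UMIs per nucleus *Nptx1* was in 8.75% of WT and 2.55% of V321L CA1 nuclei, a lower share in V321L mice that did not pass (exact p = 0.0571, n = 4 each) and that rests on 5 and 7 nuclei. *Nptx2* gave 1 UMI in all WT CA1 nuclei, in mouse F2, and 47 UMIs in V321L CA1 nuclei, at 52.7, 42.2, 8.98 and 37.1 CPM. Mouse M1, at 8.98 CPM, fell below WT mouse F2 at 11.1 CPM, so the genotypes overlapped (exact p = 0.0571, n = 4 each), and the WT mice held only 8, 28, 14 and 18 nuclei of the class. *Nptxr* was at 20.3 ± 8.44 CPM in WT and 39.5 ± 18.2 CPM in V321L CA1 neurons (SD, n = 4 each; exact p = 0.114).

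In GABAergic neurons *Nptx1* gave no UMI in the 183 WT nuclei, where 3 UMIs over the group would be 5.77 CPM, and 8 UMIs in the 131 V321L nuclei. *Nptxr* gave 4, 1, 2 and 2 UMIs in these neurons of WT and 6, 3, 4 and 6 of V321L mice. That is 20.5 ± 13.3 CPM in WT and 32.2 ± 12.1 CPM in V321L mice (SD, n = 4 each; exact p = 0.257). The highest mouse, V321L M2, was at 47.9 CPM, below the lowest *Nptxr* level in free RNA, 121 CPM. The part of free RNA in these values was not tested. *Nptx2* gave 1 UMI in WT and 2 in V321L GABAergic nuclei.

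Among glia the members gave few UMIs, and none of them passed the filter on low counts. In oligodendrocytes *Nptx1* was at 53.2 ± 23.6 CPM in WT and 19.6 ± 17.3 CPM in V321L mice (SD, n = 4 each; exact p = 0.0857), the opposite direction to GCs, from 8 and 7 UMIs. *Nptxr* gave no UMI in WT oligodendrocytes, where 3 UMIs would be 18.2 CPM, and 9 UMIs at 21.3 ± 9.59 CPM in V321L ones (SD, n = 4; exact p = 0.0286, the smallest this design can give). At 1000 UMIs per nucleus the share with *Nptxr* was 0 of 62 WT oligodendrocytes, which allows up to 4.84%, and 1.63% of V321L ones, so the difference was not detectable at equal depth. Astrocytes held *Nptxr* at 34.4 ± 27.7 CPM in WT and 25.1 ± 26.1 CPM in V321L mice (SD, n = 4 each; exact p = 0.629) and *Nptx1* at 13.9 ± 15.7 and 24.5 ± 19.3 CPM (SD, n = 4 each; exact p = 0.429). Oligodendrocyte precursors gave *Nptx2* UMIs in each V321L mouse, at 11.1, 15.9, 16.5 and 38.4 CPM. That is 6 UMIs in all, and in the 54 WT nuclei 3 UMIs would be 37.1 CPM, so a difference was not detectable at this depth. *Nptxr* in these precursors was at 20.7 ± 26.03 CPM in WT and 47.1 ± 12.7 CPM in V321L mice (SD, n = 4 each). Microglia, with 4 nuclei in the smallest library, gave no *Nptx2* UMI in either genotype, 4 and 5 UMIs of *Nptx1* and 0 and 7 UMIs of *Nptxr*.

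The remaining classes were too small for a value in every mouse. Immature neurons (81 nuclei) gave 6 *Nptx1*, 1 *Nptx2* and 10 *Nptxr* UMIs, and vascular cells (70 nuclei) gave 1 *Nptx1* and 1 *Nptxr* UMI. Cajal-Retzius cells (89 nuclei) held *Nptx1* at a pooled 72.4 CPM in WT (exact Poisson interval 19.7 to 185 CPM) and 87.8 CPM in V321L nuclei (42.1 to 161 CPM). In the same cells *Nptx2* gave 0 UMIs in WT and 4 in V321L nuclei, or 35.1 CPM. Mossy cells, the hilar excitatory neurons, came to 10 nuclei in which CA3 markers exceeded those of mossy cells, and are not described.

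**Figure D3:**
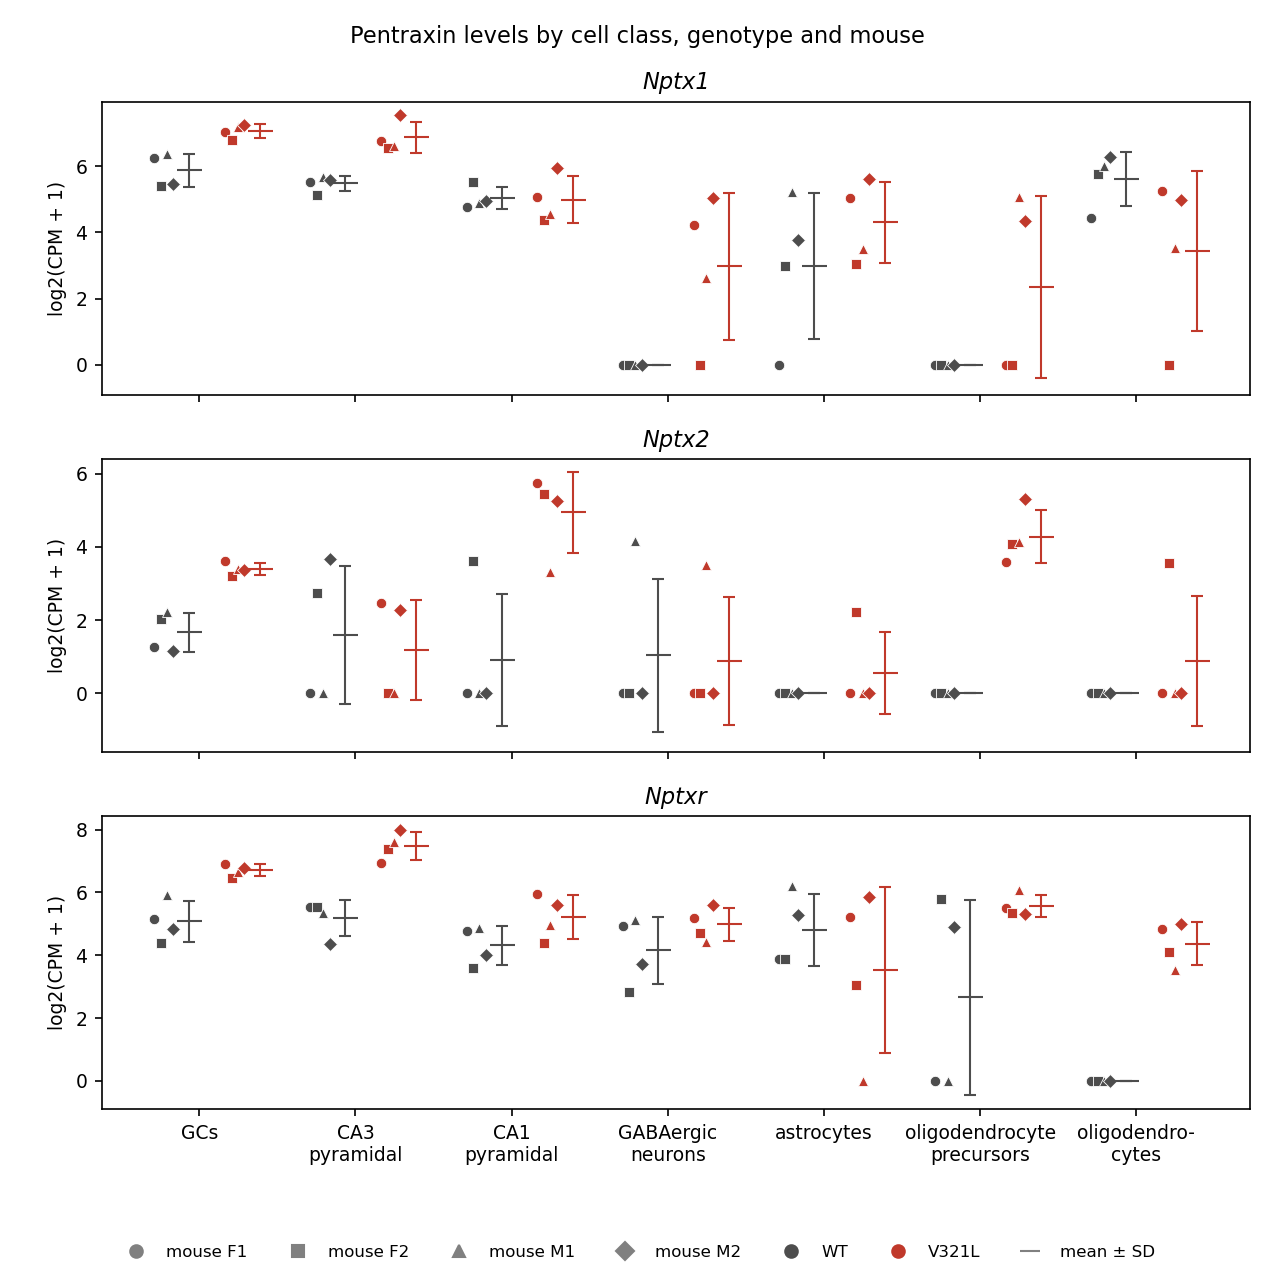
Level of each member by cell class, as log2(CPM + 1), with 1 point per mouse and bars for the mean and SD of 4 mice. By the mean over all 8 mice *Nptx1* is highest in GCs and CA3 neurons, and *Nptxr* in CA3 neurons and GCs. In WT mice alone the *Nptx1* mean of oligodendrocytes lies between those of GCs and CA3 neurons. *Nptx2* is highest in V321L CA1 neurons, while many glial points lie at 0.

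Over all 8 mice and the 7 classes with at least 8 nuclei in each mouse, the family divided by class. By the mean of log2(CPM + 1), *Nptx1* was ordered GCs (6.47), CA3 (6.17), CA1 (5.01), oligodendrocytes (4.53), astrocytes (3.65), GABAergic neurons (1.49) and oligodendrocyte precursors (1.18). Mean CPM gave the same order but for oligodendrocytes, at 36.4 CPM, above CA1 at 33.1 CPM. Neighbours were compared within mice on the log2 scale with an exact sign-flip test, with p adjusted over the neighbours of a gene. GCs and CA3 did not differ beyond their spread (0.30, adjusted exact p = 0.156), CA3 exceeded CA1 by 1.16 in 7 of 8 mice (adjusted exact p = 0.0469), and astrocytes exceeded GABAergic neurons by 2.16 in 7 of 8 mice (adjusted exact p = 0.0469). The other *Nptx1* neighbours did not pass. The astrocyte difference rests on 3 WT and 16 V321L *Nptx1* UMIs, against 0 and 8 in GABAergic neurons. Its size in WT mice therefore depends on the pseudocount of 1 CPM. At 1000 UMIs per nucleus *Nptx1* was in 2 of 116 WT astrocytes and 0 of 155 WT GABAergic neurons. The V321L shares were 2.05% and 1.57%.

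*Nptxr* was ordered on the same scale CA3 (6.34), GCs (5.89), CA1 (4.77), GABAergic neurons (4.57), astrocytes (4.17), oligodendrocyte precursors (4.11) and oligodendrocytes (2.18). By mean CPM the precursors (33.9 CPM) came before CA1 (29.9 CPM) and astrocytes (29.7 CPM) before GABAergic neurons (26.3 CPM). GCs exceeded CA1 by 1.12 on the log2(CPM + 1) scale in 8 of 8 mice (adjusted exact p = 0.0469), and no other pair of neighbours passed, CA3 and GCs among them (0.45, adjusted exact p = 0.266). *Nptx2* was ordered CA1 (2.92), GCs (2.53), oligodendrocyte precursors (2.14), CA3 (1.39), GABAergic neurons (0.96), oligodendrocytes (0.44) and astrocytes (0.28), and no neighbours differed beyond their spread (adjusted exact p from 0.900 to 1). By mean CPM the precursors (10.2 CPM) came before GCs (5.95 CPM) and GABAergic neurons (3.40 CPM) before CA3 (3.21 CPM). In WT mice alone *Nptx1* in oligodendrocytes came directly after GCs on either scale, while *Nptx2* in CA1 came after GCs on the log2 scale and before them by mean CPM.

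Whether the genotype difference itself varied by class was tested with a class by genotype term, with the mouse as a block. For *Nptx1* the difference in oligodendrocytes was lower than that in GCs by 2.51 on the log2 scale (SE 0.87, adjusted p = 0.0434 by edgeR), where 9.62% of the 9260 genes tested passed. That term rests on the 15 *Nptx1* UMIs of oligodendrocytes. In CA3 neurons the terms were 0.58 for *Nptx1* (SE 0.34, adjusted p = 0.644) and 0.72 for *Nptxr* (SE 0.36, adjusted p = 0.576 by edgeR), with 0.215% of genes passing. In astrocytes they were 0.39 for *Nptx1* (SE 0.95, adjusted p = 0.931) and -1.48 for *Nptxr* (SE 0.75, adjusted p = 0.424 by edgeR), with 2.39% passing. In GABAergic neurons the term of *Nptxr* was -0.77 (SE 0.63, adjusted p = 0.803 by edgeR), with 0.635% passing. A difference between GCs and these last 3 classes was thus not shown for the members fitted.

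GCs are not uniform, and *Penk*, which encodes proenkephalin, and *Sorcs3*, a sortilin family receptor, mark GCs that the study relates to semilunar granule cells. *Penk*+ GCs, those with at least 1 *Penk* UMI, numbered 22, 13, 8 and 13 in WT and 82, 94, 50 and 51 in V321L mice. *Nptx2* was detected in 12.2%, 11.7%, 26.0% and 3.92% of the V321L *Penk*+ nuclei and in 2.32%, 2.48%, 1.94% and 2.87% of the *Penk*- nuclei. It was higher in the *Penk*+ nuclei of all 4 V321L mice, least so in M2. In WT mice it was found in 2 of 56 *Penk*+ and 21 of 4402 *Penk*- nuclei, with a higher *Penk*+ share in 2 of 4 mice.

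The receptor showed a contrast of the same direction, in a measure that did not choose it. *Nptxr* was detected in 45.1%, 45.7%, 48.0% and 39.2% of V321L *Penk*+ nuclei and in 29.9%, 30.2%, 33.2% and 27.8% of *Penk*- nuclei. In WT mice the means were 13.9% ± 12.01 and 7.09% ± 1.84 (SD, n = 4 each), higher in *Penk*+ nuclei of 3 of 4 mice. The WT *Penk*+ share rests on 8 of 56 nuclei. In CPM *Nptxr* was higher in *Penk*+ nuclei of 2 of 4 WT and all 4 V321L mice. These shares are at full depth, and the median *Penk*+ nucleus held more UMIs than the median *Penk*- nucleus in 3 WT and 2 V321L mice. Over both genotypes, with the mouse as a block, *Nptxr* was higher in *Penk*+ GCs by 0.72 on the log2 scale (SE 0.16, adjusted p = 0.000332 by edgeR), where 1.75% of the 7985 genes tested passed in this direction. *Nptx1* did not pass (log2 fold change 0.22, SE 0.16, adjusted p = 0.582 by edgeR).

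Split by *Sorcs3* in place of *Penk*, all 3 members were detected more often in the *Sorcs3*+ GCs of each of the 8 mice. How many of all genes did so, by share or by CPM, was not counted, so this cannot be read as a trait of the family. *Nptx2* was in 11.5%, 16.8%, 14.1% and 15.0% of V321L *Sorcs3*+ nuclei against 1.51% ± 0.399 of *Sorcs3*- nuclei, and in 1.93% ± 1.16 against 0.295% ± 0.151 in WT mice (SD, n = 4). *Nptxr* was in 41.6% ± 1.54 against 29.7% ± 2.53 in V321L mice and 12.4% ± 2.02 against 6.45% ± 2.19 in WT mice. *Nptx1* was in 44.1% ± 7.45 against 39.3% ± 4.49 in V321L mice and 16.1% ± 5.13 against 11.9% ± 3.55 in WT mice. These splits by *Sorcs3* were not tested and are at full depth, and the median *Sorcs3*+ nucleus held more UMIs than the median *Sorcs3*- nucleus in each of the 8 mice, 1482 to 3183.5 against 1341 to 2337 in WT and 3649.5 to 4702 against 3244 to 4602 in V321L mice. In CPM, *Nptx2* and *Nptxr* were also higher in the *Sorcs3*+ nuclei of each mouse, but *Nptx1* was lower there in WT mouse M1 (63.4 against 83.4 CPM), with WT means of 63.4 ± 12.8 and 59.7 ± 22.7 CPM (SD, n = 4).

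**Figure D4:**
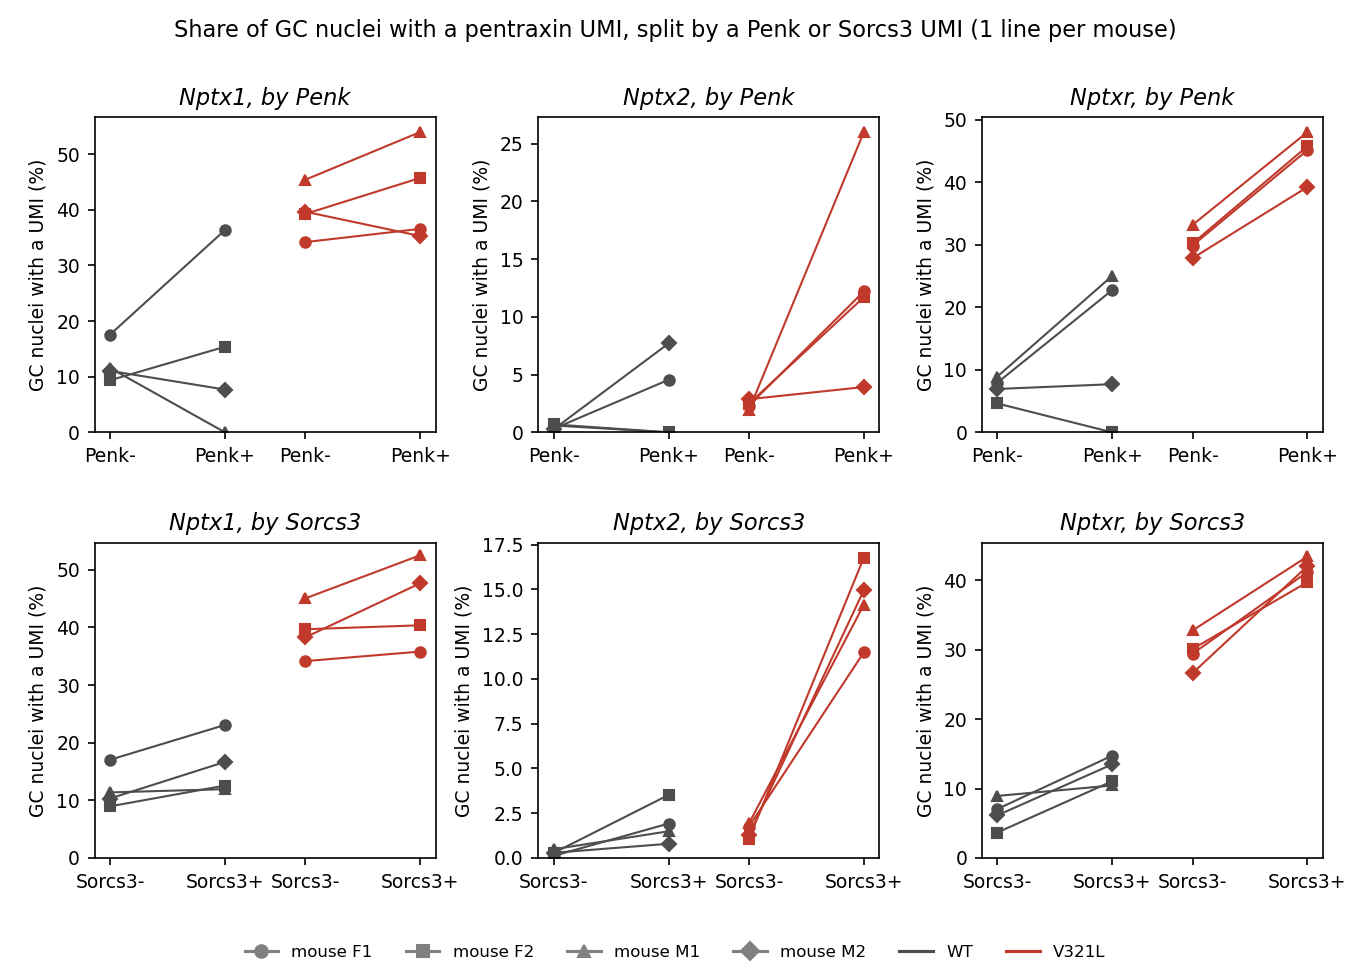
Share of GC nuclei with a UMI of each member in nuclei with and without *Penk* (one row of panels) and *Sorcs3* (the other), with 1 line per mouse joining its paired values. Lines of *Nptx2* and *Nptxr* rise towards the positive nuclei in all 4 V321L mice under both splits. Under the *Penk* split the *Nptx1* lines of V321L mouse M2 and of WT mice M1 and M2 fall. The *Nptx2* lines of WT mice F2 and M1 and the *Nptxr* line of WT mouse F2 fall to 0 there.

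Among GCs thinned to 1000 UMIs the members were seldom found in 1 nucleus. *Nptx1* and *Nptxr* were found together in 47 V321L nuclei, where the product of their shares gives 49.9, and in 5 WT nuclei, where it gives 6.59. *Nptx2* coincided with *Nptx1* in 9 V321L nuclei (product 5.55) and with *Nptxr* in 8 (product 4.65), and with neither in WT nuclei. These are counts of single UMIs and carry no test.

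No genotype difference in the chromatin of the start sites passed a test. A count in a peak within 1 kb of the *Nptxr* start was present in 7.22% ± 2.36 of WT and 8.27% ± 4.43 of V321L GCs (SD, n = 4 each; exact p = 0.743), and within 1 kb of the *Nptx2* start in 6.10% ± 2.07 and 7.69% ± 4.55 (SD, n = 4 each; exact p = 0.686). For *Nptx1*, where no such peak was called in V321L mouse M2, the shares were 10.5% ± 4.17 (SD, n = 4) and 12.7% ± 3.92 (SD, n = 3; exact p = 0.571, smallest possible 0.0571). With nuclei thinned to 1000 chromatin counts the means were 4.09% and 3.70% for *Nptx1*, 2.14% and 2.43% for *Nptx2*, and 2.49% and 2.38% for *Nptxr*. A p of this size does not show that accessibility was equal, and each library had its own set of peaks.

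The receptors that neuronal pentraxins cluster did not move as a block. Of 20 genes for AMPA receptor subunits and their auxiliary or associated proteins 19 were tested in GCs, and 4 were higher, 7 lower and 8 not called in V321L mice, with a median log2 fold change of -0.24 beside 0.12 over all genes. Over all genes tested 69.98% were called and 38.6% called higher, so under TMM the list held fewer calls than that share, and fewer in the higher direction. Of all 12325 genes tested 3862 were called lower. The subunits *Gria1*, *Gria2* and *Gria3* were called lower at -0.42, -0.45 and -0.51, but under library sizes they were not called, at 0.02, -0.02 and -0.07, and their CPM hardly differed. Relative to the median of all genes they were -0.54, -0.57 and -0.63 under TMM and -0.55, -0.59 and -0.64 under library sizes. *Gria2* was at 2409 CPM in WT and 2386 CPM in V321L GCs, and *Gria1* at 2040.3 and 2070.0 CPM. Among the auxiliary proteins, *Shisa9* fell from 921 ± 67.1 to 494 ± 55.8 CPM and *Shisa6* from 750.1 ± 91.0 to 466 ± 52.9 CPM, whereas *Olfm1* rose from 295 ± 103 to 1649.9 ± 130.3 CPM (SD, n = 4 each). The direction of these last 3 genes was the same under all 3 scalings, with log2 fold changes of -1.34, -1.14 and 2.09 under TMM. Under library sizes 9 genes of the list were higher and 4 lower, where 6618 and 2156 of all 12325 genes were. Under DESeq2 4 were higher and 10 lower, where 4207 and 4061 of all 12325 genes were.

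*Adam17*, the sheddase of the receptor, was at 20.5 CPM in GCs of both genotypes. Its log2 fold change of -0.44 passed under TMM (adjusted p = 0.0192 by edgeR) and was 0.01 under library sizes (adjusted p = 0.956 by edgeR), so its direction depended on the scaling.

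Of 17 activity-regulated genes, the kind to which *Nptx2* belongs, 13 were tested in GCs, and 5 were higher, 3 lower and 5 not called in V321L mice, with a median log2 fold change of 0.62 beside 0.12 over all genes. The share called higher was close to the 38.6% of all genes. *Nrn1*, a synaptic protein, rose from 108 to 290.2 CPM and *Scg2*, a granin, from 79.0 to 238 CPM, with log2 fold changes of 0.99 and 1.20. *Homer1*, a scaffold protein, fell from 210.4 to 107 CPM and *Inhba*, an activin subunit, from 54.6 to 33.7 CPM, with log2 fold changes of -1.41 and -1.14. *Bdnf* was at 99.5 and 144 CPM and *Egr3* at 16.3 and 18.4 CPM, neither called under TMM. Library sizes gave 8 higher and 2 lower, where 6618 and 2156 of all 12325 genes were called so. DESeq2 gave 4 higher and 3 lower, where 4207 and 4061 of all 12325 genes were. The 4 genes named here as changed kept their direction under all 3 scalings.

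**Figure D5:**
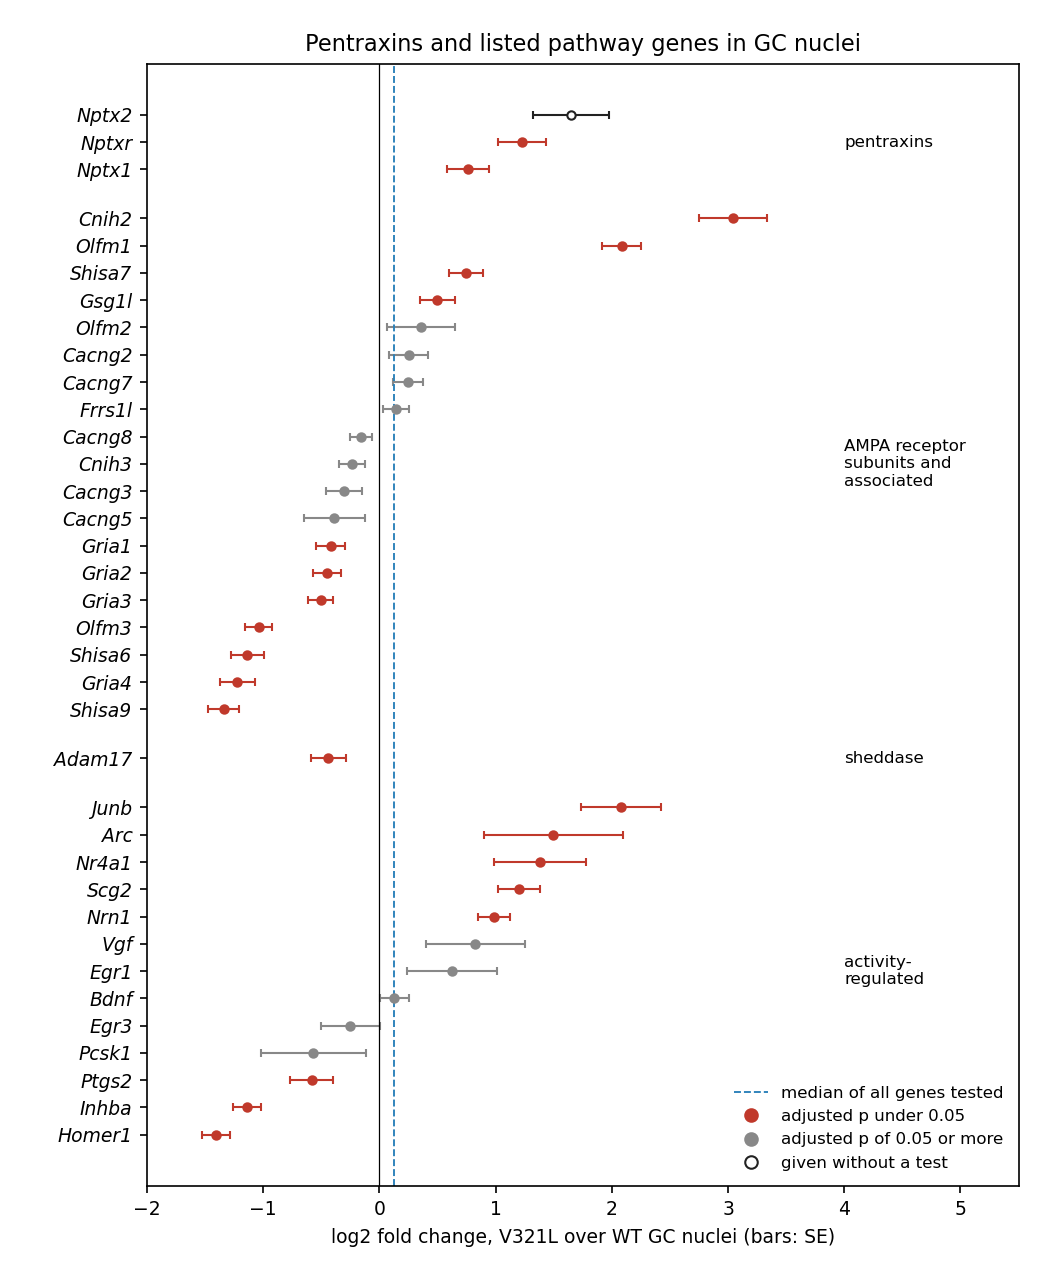
Fitted log2 fold change, V321L over WT, in GCs for the members and the tested genes of the AMPA receptor list, the sheddase and the activity-regulated list, with bars of 1 SE, the median of all genes as a dashed line and *Nptx2* as an open point without a test. *Nptx1*, *Nptx2* and *Nptxr* lie to the higher side at 0.76, 1.65 and 1.23, while the AMPA receptor list spreads to both sides around a median of -0.24.

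The short pentraxins *Crp* and *Apcs* and the long pentraxins *Ptx3* and *Ptx4* were too rare to test, with 5, 0, 2 and 25 UMIs in all GCs. The 3 genes of complement C1q, a protein that neuronal pentraxins bind and that microglia make, were called higher in V321L GCs, as were 38.6% of all genes tested. *C1qa* rose from 1.19 to 12.02 CPM, *C1qb* from 0.99 to 11.6 CPM and *C1qc* from 1.46 to 8.80 CPM, with log2 fold changes of 3.29, 3.59 and 2.83, and the direction held under all 3 scalings. For *C1qc* the genotypes overlapped, with the highest WT mouse at 4.55 CPM and the lowest V321L mouse at 4.22 CPM. Of the 9 microglia markers 6 were tested in GCs, with 3 lower and 2 higher, and the 2 higher were *C1qa* and *C1qb* themselves. The summed level of the 9 was 101 to 262 CPM in WT and 71.8 to 129 CPM in V321L mice. None of the 9 was at 0 in every mouse. The part of microglial RNA in these values was not tested.

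The genes most like a member across the 7 classes, by Pearson r of log2(CPM + 1) over the class means of the WT mice, differed between the members. For *Nptx1* they were *Neurod2* (r = 0.985), *Mrtfb* (0.985) and *Fam133b* (0.977), with 0.954, 0.914 and 0.151 over the V321L means. For *Nptx2* they were *Srsf12* (0.996), *Skap1* (0.994) and *Celsr3* (0.993), with 0.105, 0.428 and 0.199 over the V321L means. For *Nptxr* they were *Crk* (0.993), *Nol10* (0.988) and *Taf2* (0.985), with -0.12, 0.297 and 0.434 over the V321L means. *Neurod2*, a transcription factor of excitatory neurons, and *Mrtfb* alone kept a high r. The genes were picked as the highest r of at least 12330 genes over 7 points, so a high WT r comes with the choice. In WT mice *Nptx2* gave 0 UMIs in astrocytes, oligodendrocytes and their precursors, and 1 UMI each in CA1 and GABAergic neurons. *Nptx1* gave 0 UMIs in WT GABAergic neurons and oligodendrocyte precursors, and *Nptxr* 0 in WT oligodendrocytes. The 7 points of each r share libraries and depth. Between the members r depended on the genotype. For *Nptx1* and *Nptxr* it was 0.026 over the WT and 0.668 over the V321L means. For *Nptx2* and *Nptxr* it was 0.658 and 0.286, and for *Nptx1* and *Nptx2* 0.382 and 0.060.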

How the data were processed

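Nuclei of 4 WT and 4 V321L DGs were profiled as 1 Multiome library per mouse. The authors aligned and counted the reads with Cell Ranger ARC 2.0.2 (per the file headers) to mm10 (submitters' processing notes, which also name Seurat and Signac). The deposited matrices hold raw counts, RNA UMIs for 32285 genes and counts in peaks that the authors' pipeline called in each library separately, for all barcodes and not normalized.

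Nuclei were barcodes with over 500 UMIs, over 250 genes and at least 500 counts in peaks, under the study's upper limits on UMIs, genes and mitochondrial share. Doublets, with a Scrublet score (scanpy 1.11.5) more than 2 SD above the library mean, were removed. A nucleus joined a class with at least 3 UMIs from at least 2 of its markers. For classes other than GCs these stood at 3 times the library's mean marker share or more, and over 2 times the next such class. Such a nucleus also had GC markers below 0.5 times their mean share. GCs had GC markers at 0.5 times the mean share or more, with no lead over other classes required. Other nuclei had no class. *Dock10* was left out of the GC score because glia also hold it. Of GCs and CA3 nuclei, UMIs were summed per mouse and tested with edgeR 4.0.16 (filterByExpr, TMM, quasi-likelihood, Benjamini-Hochberg over all genes tested, threshold 0.05). A minimum of 10 nuclei per mouse was planned, which CA3, CA1 and oligodendrocyte precursors missed, so their values were added after seeing the data, as were the CA3 interaction and the exact tests of members below the filter. Shares and CPM were compared with two-sided exact permutation tests, levels with a pseudocount of 1 CPM. Nuclei were thinned to 1000 or 500 UMIs by random draws. DESeq2 1.42.0, plain library sizes, other gates, all doublets kept and leaving out each mouse were alternatives. Further tools were R 4.3.3, Python 3.11.15, numpy 2.4.6, scipy 1.17.1, pandas 2.3.3 and matplotlib 3.10.9. The edgeR genotype fit was checked on simulated counts, and the permutation and sign-flip tests on values with a known answer. The class by genotype, *Penk* and DESeq2 fits had no such check.

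The members and the gene lists were chosen with earlier results of these data known. Genes named are the members, up to 6 of each list with the highest levels in GCs and all of a list of 3 or 4, and the 3 genes most like a member. Fewer cells of a type and less RNA per cell cannot be told apart in a sum, and p-values measure the spread between 4 mice per genotype. The 3′ counting does not allow levels of different genes to be compared. Depth per sample stands in the report, and intervals cover counting error only.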

Additional observations from a re-analysis of the deposited data

Results flagged for a closer look

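In 5 of 46 groups of 4 mice a single mouse stood apart from the other 3, with a gap above Dixon's 95% critical value (0.829 of the range). The 1 in 20 rate of that value does not hold where the other 3 mice are at 0. The groups also share mice and counts, so 5 of 46 cannot be read as an excess. *Nptx2* stood at 11.1 CPM in CA1 neurons of WT mouse F2 and at 16.9 CPM in GABAergic neurons of WT mouse M1, with the other 3 mice at 0 each time, and each value is 1 UMI. *Nptx2* stood at 10.3 CPM in GABAergic neurons of V321L mouse M1, from 2 UMIs, with the other 3 mice at 0. In the free RNA of WT mouse M1 *Nptx2* stood at 9.88 CPM against 5.18 to 5.71 CPM in the other WT mice. *Nptx1* in CA3 neurons stood at 185 CPM in V321L mouse M2 against 92.6 to 108 CPM in the other V321L mice, and without that mouse the log2 fold change of CA3 stayed past the threshold.

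The genotype difference of *Nptx1* was lower in oligodendrocytes than in GCs by the tested class by genotype term, at -2.51 on the log2 scale (SE 0.87, adjusted p = 0.0434 by edgeR), or -2.86 under library sizes (adjusted p = 0.0144 by edgeR). It rests on 8 WT and 7 V321L UMIs of oligodendrocytes.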

How the results depend on the processing

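In GCs *Nptx1* and *Nptxr* kept direction and side of the threshold in all 40 alternative fits, with leave-one-out log2 fold changes of 0.58 to 0.88 and 1.02 to 1.40. *Nptx2*, given without a test, spanned 1.36 to 2.02, and 5836 to 9949 genes passed the threshold. Library sizes gave the highest values of the other alternatives, 1.19 for *Nptx1*, 2.11 for *Nptx2* and 1.65 for *Nptxr*. All 22 fits of both genes in CA3 did too, at 1.20 to 1.65 for *Nptx1* and 1.86 to 2.41 for *Nptxr* with a mouse left out. With the replicate number as a block (replicate block) the values were 0.77, 1.63 and 1.24 in GCs, with 8495 genes called, and 1.45 and 2.23 in CA3, and changed no call. Whether the numbers pair the mice is not known, and the labels name no shared litter. Same-numbered mice deviated together with r of 0.057, 0.290, -0.12 and 0.038, which was not compared with mice of other numbers. Differences in share of GCs ranged, with a mouse left out, from 25.4 to 29.3 points for *Nptx1* and 23.1 to 24.9 for *Nptxr*, each at an exact p of 0.0571, the smallest that 4 mice against 3 allow, and from 2.56 to 2.71 for *Nptx2*, with no test. Under the 6 other alternatives they spanned 3.13 to 27.9 for *Nptx1* and 3.64 to 25.6 for *Nptxr*, lowest at 500 UMIs, and 0.389 to 3.30 for *Nptx2*, lowest with at least 2 UMIs required.

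The order of classes was less firm, and 4 mice alone cannot pass. On the log2 scale *Nptx1* in CA3 exceeded CA1 by 0.45 in WT and 1.88 in V321L mice, and *Nptxr* in GCs exceeded CA1 by 0.76 and 1.48. *Nptx1* in astrocytes exceeded GABAergic neurons by 2.99 and 1.33. Under a stricter gate over all 8 mice that difference was 1.16 and no longer passed (adjusted exact p = 0.125 by the sign-flip test). *Nptx2* in CA1 against GCs reversed to -0.77 in WT mice. Promoter differences within 1 kb at equal chromatin depth reversed to -0.387 points for *Nptx1* and -0.115 for *Nptxr*, but within 2 kb at that depth were 0.308 and 0.0732, and *Nptx2* stayed above 0 in both, so these signs carry no weight. The 6 class by genotype and 4 *Penk* alternatives changed no call. The causes were not tested. A fit of *Nptx2* at 1000 UMIs, fits of members under the filter, and CA3 under the stricter gate gave no value. Members gave few UMIs in classes other than GCs, so depth limits these classes. In GCs depth did not overlap between the genotypes, and *Nptx2* gave 24 UMIs in WT mice.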
